A study of Homo sapiens with 11 samples.

Results

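The 7 genes described here encode estrogen receptors, other steroid receptors and estrogen-related receptors. They are ESR1 and ESR2 (the nuclear estrogen receptors alpha and beta), GPER1 (the G protein-coupled estrogen receptor of membranes), PGR (the progesterone receptor), NR3C1 (the glucocorticoid receptor), and ESRRA and ESRRG (the estrogen-related receptors alpha and gamma). They were chosen by name, and every probe set annotated to exactly 1 of these symbols was kept. That gave 28 of the 54675 probe sets on the array: 9 for ESR1, 6 for ESR2, 5 for NR3C1 and 2 each for GPER1, PGR, ESRRA and ESRRG. No probe set named a member together with another gene, and no filter on low values was applied, so all 28 were tested.

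RNA of MDA-MB-231, an established human breast cancer line of the triple-negative type, was hybridised to 11 Affymetrix HG-U133 Plus 2.0 arrays in 9 groups. In all groups the cells first spent 4 h in medium with charcoal-stripped serum, which removes most steroids, and were then kept for 3 h with or without an agent. The groups were untreated control (2 arrays), E2-BSA at 1 µM (2 arrays), and 1 array each of ethanol at 0.1%, estradiol at 1 µM, BSA at 1 µM, ICI at 10 µM, G15 at 10 µM, and E2-BSA with ICI or with G15 at those doses. E2-BSA is estradiol joined to the carrier protein bovine serum albumin, which is meant to keep it outside the cell. ICI is an antagonist that the labels give by that abbreviation, and G15 is an antagonist of GPER. The labels do not say whether the duplicate arrays came from separate cultures, so p-values measure the spread between these arrays, which may be technical, and a group with 1 array has no replicate check of its own.

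Nuclear steroid receptors are transcription factors that sit with chaperones until a hormone binds, then contact DNA and recruit coactivators or corepressors. ESR1 drives growth of luminal breast cancers and induces PGR, which is read in the clinic as a sign of a working estrogen receptor; triple-negative lines are defined by lacking both proteins in appreciable amounts. The estrogen-related receptors bind no estrogen and regulate energy metabolism, NR3C1 responds to cortisol, and GPER1 signals through G proteins and cyclic AMP.

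The deposited values were log2 values centred on each probe set's own middle value. No level of any receptor could therefore be given, receptors could not be ranked by abundance, and the labelled cell line could not be checked against levels of its markers. Every value below is a log2 value relative to the probe set's centre, or a log2 difference between arrays. In bulk RNA, fewer cells of a type and less RNA per cell cannot be told apart.

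The arrays fell into a set of 3 and a set of 8. The 24 poly-A spike-in probe sets, which read bacterial transcripts added to the RNA, averaged 1.40 to 1.62 in the first control, the estradiol and the first E2-BSA array, and -0.56 to 0.10 in the other 8. The first set is called the high spike-in set here and the second the low spike-in set. The labels name no batch. The control and E2-BSA duplicates each had 1 array in either set, the only estradiol array lay in the high set and the other single arrays in the low set. The median of all probe sets lay between -0.05 and 0.09 in every array.

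Most receptor probe sets moved little. Within the low set the standard deviation over 8 arrays had a median of 0.18 over the 28 probe sets and of 0.183 over all probe sets of the array, and 13 of the 28 lay above that median. The quietest was ESR1 215552_s_at, between -0.10 and 0.21 (SD 0.116, n = 8). The widest was ESR2 211118_x_at, from -0.50 in the second E2-BSA array to 0.43 in the array of E2-BSA with ICI (SD 0.287, n = 8). One probe set stood apart over the 11 arrays: NR3C1 232431_at was more than 1 below its centre in the 3 arrays of the high set and above it in the other 8.

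**Figure D1:**
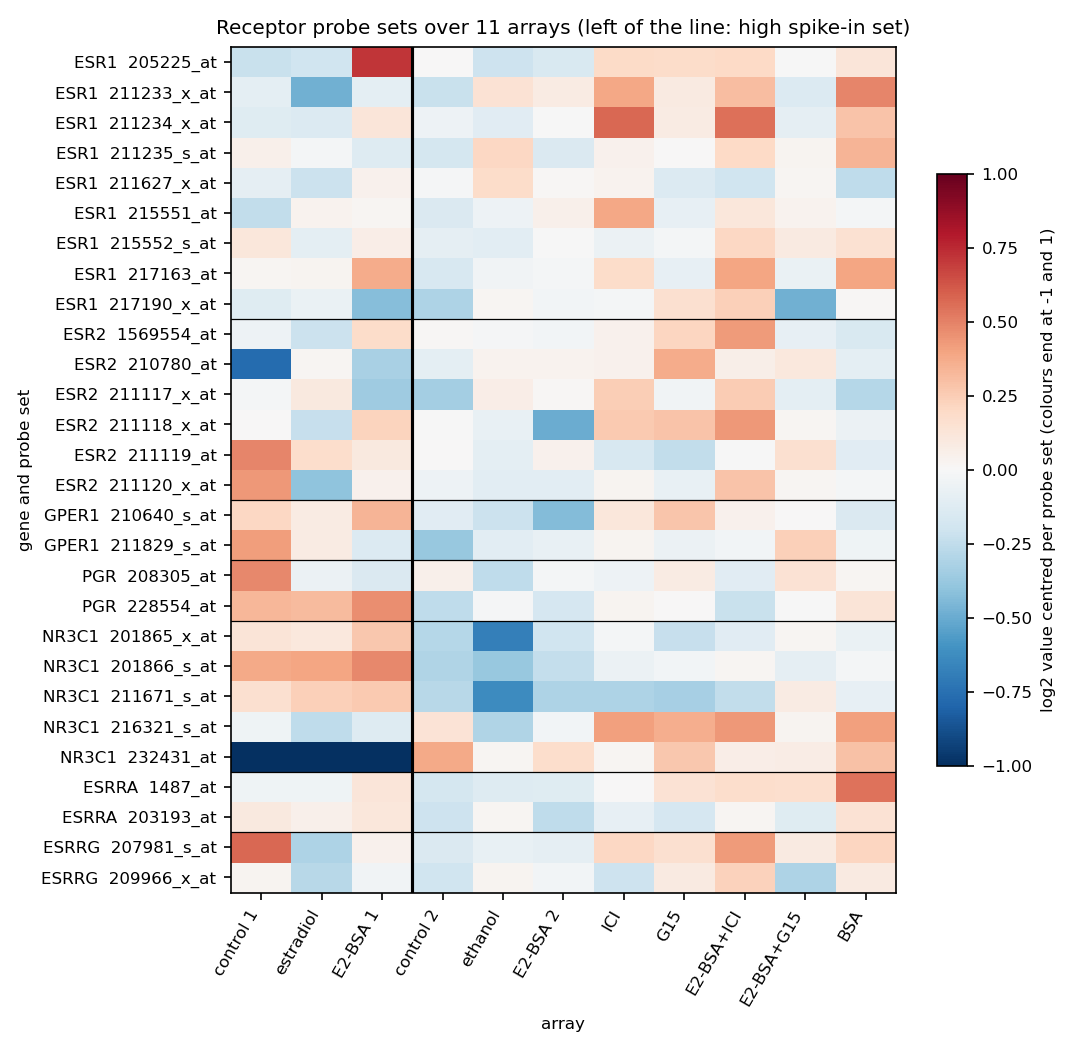
Log2 values, centred per probe set, of the 28 receptor probe sets (rows, grouped by gene) in the 11 arrays (columns); red is above and blue below the centre, colours end at -1 and 1, and the vertical line parts the high spike-in set (left, 3 arrays) from the low one (right, 8 arrays). NR3C1 232431_at is the darkest row, at -1.47, -1.65 and -1.14 in the high set, while the other rows stay mostly pale.

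NR3C1 was the member whose probe sets differed most between the sets of arrays, and they did so in opposite directions. NR3C1 lies on the minus strand of chromosome 5 (chr5:143277931-143435512 in GRCh38.p14), and RefSeq gives its transcripts 7 promoter windows, which reach from 250 bases before to 50 bases after a start. The 250 bases before the start are shown for the window farthest upstream and for the one listed first, 31.0 kb apart. Capitals mark the GC box GGGCGG, read on either strand (CCGCCC on the other); letters run 5′ to 3′ along the gene.

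NR3C1 chr5:143435513-143435762, minus strand, farthest upstream: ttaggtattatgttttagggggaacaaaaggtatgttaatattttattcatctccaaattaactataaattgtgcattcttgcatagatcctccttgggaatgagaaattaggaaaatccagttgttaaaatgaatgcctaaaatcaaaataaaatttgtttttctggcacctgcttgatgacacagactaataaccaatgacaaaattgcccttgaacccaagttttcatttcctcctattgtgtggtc

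NR3C1 chr5:143404483-143404732, minus strand, listed first: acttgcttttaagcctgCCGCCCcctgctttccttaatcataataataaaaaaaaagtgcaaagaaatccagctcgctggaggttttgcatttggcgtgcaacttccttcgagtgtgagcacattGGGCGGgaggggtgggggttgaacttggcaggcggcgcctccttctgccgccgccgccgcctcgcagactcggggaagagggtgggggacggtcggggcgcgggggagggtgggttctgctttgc

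The first stretch holds 0 GC boxes and the second holds 2. Of the 7 NR3C1 windows 5 held at least 1, and so did 16 of the 32 windows of all members, against 45% of 35116 windows of all genes. The core of the palindromic estrogen response element, AGGTCA and after 3 bases TGACC, was in 0 of the 32 windows (0.0313% of all windows), and AAGGTCA, the extended half-site bound by estrogen-related receptors, was in 2 (3.92% of all), 1 of ESR2 and 1 of ESRRG. These are matches of letters on both strands in these windows. The array data do not tell which start each probe set reads, and any part of the starts in the opposite directions was not tested.

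NR3C1 232431_at stood at -1.47 in the first control, -1.65 in the estradiol and -1.14 in the first E2-BSA array. In the 8 arrays of the low set it lay between 0.02 and 0.38, with a median of 0.13. The sets did not overlap for this probe set, and both duplicated groups showed the same direction: the first minus the second array was -1.84 for control and -1.32 for E2-BSA. The limma fit, with terms for each agent and for the set, put the difference between the sets at -1.58 ± 0.20 (SE; adjusted p = 0.00213).

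The 3 other NR3C1 probe sets whose sets did not overlap ran the other way. NR3C1 201866_s_at stood at 0.38, 0.40 and 0.48 in the high set and between -0.38 and 0.02, median -0.07, in the low set. Its difference was 0.70 ± 0.12 (adjusted p = 0.00699 in limma). NR3C1 201865_x_at differed by 0.44 ± 0.13 and 211671_s_at by 0.50 ± 0.15, and neither passed (adjusted p = 0.0573 and 0.0531 in limma). The fifth, 216321_s_at, was at -0.14 ± 0.15 and its sets overlapped. Averaged over its 5 probe sets, NR3C1 differed by -0.02 ± 0.10, since the average joins probe sets of opposite sign.

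**Figure D2:**
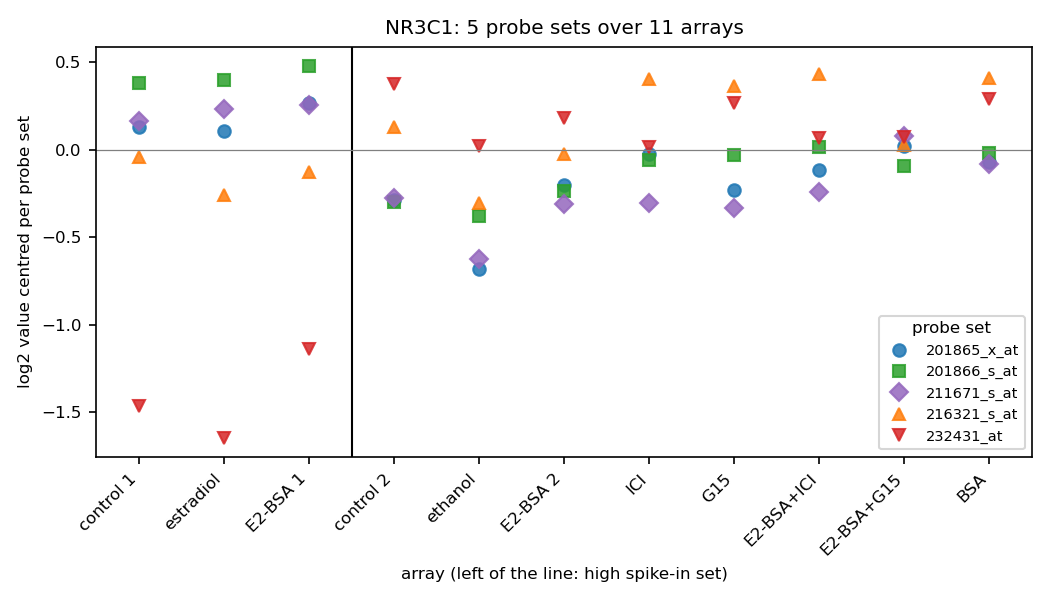
Log2 values, centred per probe set, of the 5 NR3C1 probe sets (symbols) in each of the 11 arrays; the vertical line parts the high spike-in set from the low one. In the 3 arrays on the left 232431_at lies between -1.65 and -1.14 while 201865_x_at, 201866_s_at and 211671_s_at lie between 0.11 and 0.48; on the right 232431_at is above 0 in all 8 arrays.

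PGR and GPER1 each had 1 probe set higher in the high set. PGR 228554_at stood at 0.33 in the first control, 0.32 with estradiol and 0.46 in the first E2-BSA array, against -0.25 to 0.13 with a median of -0.01 in the low set, with no overlap. Its difference was 0.61 ± 0.15 (adjusted p = 0.0243 in limma). The other PGR probe set, 208305_at, stood at 0.48, -0.06 and -0.15 in the high set, 1 above and the others inside the low set's range of -0.25 to 0.15, and its difference of 0.15 ± 0.18 did not pass (adjusted p = 0.609 in limma).

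GPER1 210640_s_at stood at 0.21, 0.08 and 0.34 in the high set and between -0.43 and 0.27, median -0.06, in the low set, so the sets overlapped. Its difference was 0.55 ± 0.15 (adjusted p = 0.0392 in limma), and that of 211829_s_at was 0.36 ± 0.22 (adjusted p = 0.29 in limma). As averages of their 2 probe sets, GPER1 differed by 0.46 ± 0.11 (adjusted p = 0.0185 in limma) and PGR by 0.38 ± 0.12 (adjusted p = 0.0475 in limma). These were the 2 of 7 gene averages that passed, against 24.1% of all 19775 genes.

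ESR1, ESR2, ESRRA and ESRRG had no probe set that passed between the sets in the fit to all arrays. Their averages differed by 0.07 ± 0.11, 0.08 ± 0.11, 0.26 ± 0.10 and 0.27 ± 0.16. Within ESR2 the values had both signs, with 210780_at at -0.52 ± 0.18 and 211118_x_at at 0.37 ± 0.20. With 1 array left out some passed: ESR1 205225_at without the first control (0.84, adjusted p = 0.024 in limma), ESRRG 207981_s_at without the first E2-BSA array (0.72, adjusted p = 0.044 in limma), and ESR2 210780_at without the first E2-BSA array or either G15 array (-0.76, -0.52 and -0.52, adjusted p from 0.0312 to 0.0356 in limma).

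In all, 4 of the 28 receptor probe sets (14.3%) passed between the sets, 3 higher and 1 lower, against 20.7% of all probe sets (10.4% higher and 10.3% lower). At an unadjusted p under 0.05 there were 8 (28.6%), against 33.8% of all. The sets did not overlap for 5 of the 28 (17.9%), against 26.6% of all probe sets. The first duplicate differed from the second in the same direction for control and for E2-BSA in 18 of 28 (64.3%), against 72.5% of all. The receptor genes thus followed the division of the arrays at about or under the share of the whole array. The count rests on few arrays: it was 0 without the second control, where NR3C1 232431_at was at -1.45 (adjusted p = 0.0628 in limma), 1 without the second E2-BSA array, and 7 without the G15 array or without the array of E2-BSA with G15. NR3C1 232431_at kept its call in the other 7 of the 8 fits that left out an array. GPER1 211829_s_at gained one without the first E2-BSA array (0.73, adjusted p = 0.0421 in limma), and NR3C1 201865_x_at and 211671_s_at did so without either G15 array (adjusted p from 0.0175 to 0.036 in limma). NR3C1 201866_s_at lost its call without the second control or the second E2-BSA array (0.69 and 0.71, adjusted p = 0.0844 and 0.0838 in limma). PGR 228554_at and GPER1 210640_s_at lost theirs without either of those and without the first E2-BSA array (adjusted p from 0.0976 to 0.302 in limma), and GPER1 210640_s_at also without the ICI array, without that of E2-BSA with ICI (adjusted p = 0.0765 and 0.0773 in limma) and after quantile normalization (0.56, adjusted p = 0.0558 in limma).

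**Figure D3:**
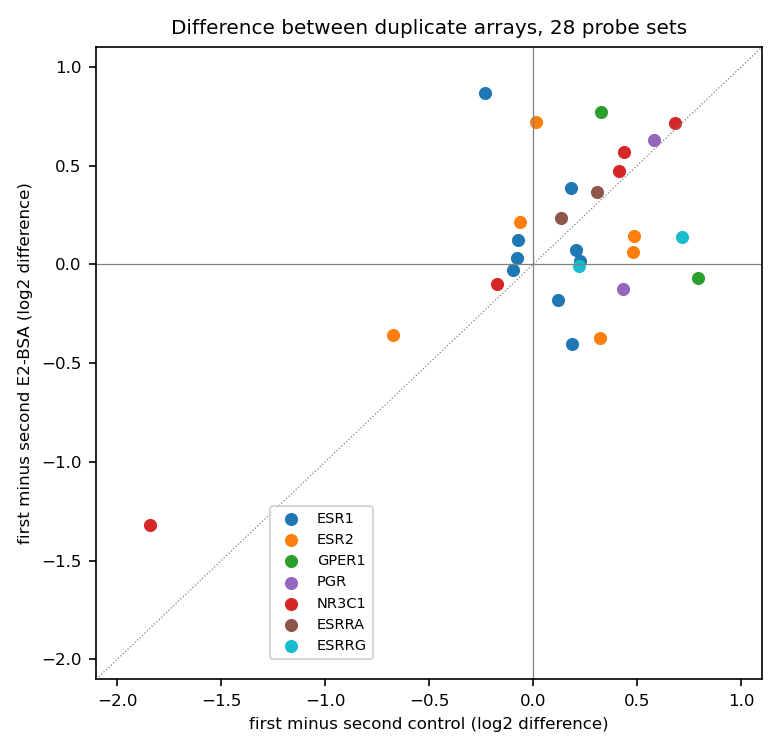
Difference between duplicate arrays for the 28 receptor probe sets (points, coloured by gene), with the first minus the second control on the horizontal axis and the first minus the second E2-BSA array on the vertical axis, both in log2; the dotted line marks equal differences. NR3C1 232431_at lies alone at -1.84 and -1.32, and 3 NR3C1 probe sets and PGR 228554_at lie near the line on the positive side.

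Markers of other cell states were set beside these differences. The mean of 14 luminal epithelial genes was 0.35 to 0.61 in the high set and -0.13 to 0.06 in the low set, and 7 of the 14 passed, 5 higher and 2 lower, against 24.1% of all genes (14.1% higher and 10% lower). TFF1, a secreted peptide known as an estrogen-induced gene of luminal cells, differed by 3.33 ± 0.34, AGR2, a protein-folding enzyme of secretory cells, by 2.95 ± 0.22 and the keratin gene KRT18 by -0.69 ± 0.10. In the first control, estradiol and first E2-BSA arrays TFF1 stood at 3.71, 3.20 and 2.77 and AGR2 at 2.78, 2.69 and 2.87. The mean of the 14 in the high set rests largely on these genes. The median fitted difference of the list was 0.33, beside 0.07 over all genes. The mean of 11 basal and mesenchymal genes was 0.23 to 0.33 against -0.12 to 0.05, with 2 of the 11 passing, both higher, a share under that of all genes, SNAI2 at 2.17 ± 0.16 and FN1 at 0.48 ± 0.12. Their part in the PGR, GPER1 and NR3C1 differences was not tested, and zero levels cannot be read from centred values.

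The genes that work with these receptors gave a mixed picture between the sets, tested as gene averages against the 24.1% of all genes called. Of 6 other steroid and orphan receptors 1 passed, NR3C2 (the mineralocorticoid receptor) at 1.66 ± 0.14. Of 13 genes of estrogen synthesis and conjugation 6 were higher and 2 lower, among them CYP1B1 at 3.25 ± 0.20 and CYP1A1 at 1.21 ± 0.11, which hydroxylate estrogens, and HSD17B7 at -1.08 ± 0.14. Of 16 coactivators 4 were higher and 1 lower, with NCOA4 at 0.62 ± 0.10, NCOA1 at 0.55 ± 0.11 and the methyltransferase PRMT1 at -0.70 ± 0.11.

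The other partner lists are given by their counts, beside 14.1% of all genes called higher and 10% called lower. Of 13 corepressors 4 were lower and 0 higher, with GPS2 at -0.66 ± 0.12, LCOR at -0.58 ± 0.12 and the deacetylase HDAC3 at -0.52 ± 0.11. Of 13 chaperones and co-chaperones 2 were lower, CDC37 at -1.21 ± 0.14 and STIP1 at -0.61 ± 0.13. Of 13 membrane and scaffold partners 5 were lower and 1 higher, with STRN3 at -1.07 ± 0.18, PELP1 at -0.81 ± 0.12 and CAV2 at 0.61 ± 0.12. Of 18 G protein and cyclic AMP partners of GPER 1 was higher, PRKACB at 0.90 ± 0.12, and 2 were lower, GNAI2 at -1.32 ± 0.37 and DLG4 at -0.71 ± 0.15. Of the list genes named for the sets, NR3C2, CYP1B1, CYP1A1, HSD17B7, CDC37, PRKACB, TFF1, AGR2 and SNAI2 kept their call in all 8 fits that left out an array. Each of the others lost it without at least 1 of the control or E2-BSA arrays.

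No treatment moved a receptor probe set past the test. In each of the 9 treatment comparisons limma called 0 of the 28. Of all probe sets of the array 0% were called in 7 of the comparisons, 0.439% for BSA against control and 0.368% for E2-BSA against BSA. The members' smallest adjusted p ranged from 0.227 to 0.913 over the comparisons.

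E2-BSA is the agent the study repeated most. Whether it engaged any of these receptors was not measured. With E2-BSA present against absent, 0 of the 28 had an unadjusted p under 0.05, against 4.08% of all probe sets in limma. Averaged over its probe sets, ESR1 differed by 0.05 (95% interval -0.13 to 0.23), ESR2 by 0.01 (-0.16 to 0.19), GPER1 by -0.07 (-0.24 to 0.11) and PGR by -0.09 (-0.28 to 0.10). NR3C1 differed by 0.03 (-0.14 to 0.19), ESRRA by 0.07 (-0.10 to 0.23) and ESRRG by -0.02 (-0.29 to 0.24). Every interval held 0, and none reached 0.3 in either direction.

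The single probe sets behaved alike. The highest was ESR1 217163_at at 0.18 ± 0.10: E2-BSA minus its matched array was 0.35 for the first duplicates, 0.14 for the second, 0.21 with ICI on both sides and 0.02 with G15 on both sides. The lowest was PGR 208305_at at -0.17 ± 0.13, with -0.63, -0.08, -0.06 and 0.07 for the same 4 pairs. ESR1 205225_at was at 0.71 in the first E2-BSA array and -0.15 in the second, against -0.22 and 0.01 in the controls, so its duplicates went in opposite directions. The other probe set of PGR, the textbook target of ESR1, was at 0.13, 0.08, -0.25 and 0.00 in those pairs, so the PGR probe sets disagreed in both duplicates.

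Free estradiol was compared with the control, with ethanol and with E2-BSA of the same dose and time. The estradiol array lay in the high set and the ethanol array in the low set, so that comparison rests on the fitted set term. With no set term the sign changed for 10 of 28 in estradiol against ethanol. Against the control 3 of 28 (10.7%) had an unadjusted p under 0.05 in limma, against 7.76% of all, and against ethanol 0 of 28, against 7.96%. The 2 of ESR2 had opposite signs: 211120_x_at was at 0.43 in the first control and -0.41 with estradiol, a fitted difference of -0.65 ± 0.22, and 210780_at was at -0.77 and 0.02, a fitted difference of 0.61 ± 0.22. ESRRG 207981_s_at was at 0.57 and -0.31, a fitted difference of -0.66 ± 0.25 (adjusted p = 0.598 in limma).

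Free and coupled estradiol were not told apart at the receptor genes. Estradiol minus E2-BSA, both at 1 µM and 3 h, had 2 of 28 (7.14%) with an unadjusted p under 0.05, against 8.26% of all in limma, again ESR2 211120_x_at at -0.63 ± 0.22 and 210780_at at 0.53 ± 0.22. The averages differed by -0.15 for ESR1 (95% interval -0.47 to 0.17), -0.10 for ESR2 (-0.41 to 0.22), -0.09 for GPER1 (-0.40 to 0.23), -0.11 for PGR (-0.45 to 0.23) and -0.14 for NR3C1 (-0.44 to 0.17). The widest was ESRRG at -0.43 (-0.91 to 0.04). With a single estradiol array these intervals leave room for changes of that size in either molecule, so they do not show that the molecules act alike.

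With ICI 6 of 28 (21.4%) had an unadjusted p under 0.05, against 11.6% of all probe sets in limma. ESR1 211234_x_at was at 0.57 with ICI and 0.55 with E2-BSA and ICI, against -0.05 in the second control and 0.00 in the second E2-BSA array, the 2 highest of its 11 values. Its difference was 0.59 ± 0.15, with 0.62 and 0.55 in the 2 matched pairs (adjusted p = 0.427 in limma). ESR2 211118_x_at differed by 0.60 ± 0.20, ESR2 211117_x_at by 0.42 ± 0.17, ESR1 211233_x_at by 0.41 ± 0.16, ESR1 217163_at by 0.38 ± 0.14 and NR3C1 216321_s_at by 0.37 ± 0.15.

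The ICI arrays were also higher at large. All 9 ESR1 probe sets were higher with ICI than in the second control and 8 of 9 in the pair with E2-BSA, while the median of all probe sets differed by 0.14 and 0.12 in those pairs. The fitted difference had a median of 0.24 over the 28 and of 0.13 over all probe sets. After each array was centred on its own median, 2 of the 28 had an unadjusted p under 0.05 in limma, and after quantile normalization 3. The share of all probe sets at that level was not counted under these settings, so whether it fell as well is not known.

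G15 binds GPER1. Both GPER1 probe sets were higher with G15 in both pairs, as they were with ICI, and neither passed with either agent. The pairs of both agents use the same second control and second E2-BSA arrays, so the agents are not independent here. The GPER1 averages of those arrays, -0.247 and -0.251, were the lowest of all arrays, followed by -0.160 with ethanol. Whether the shared direction comes from low values in those arrays was not tested. GPER1 210640_s_at was at 0.27 with G15 and 0.00 with E2-BSA and G15, against -0.12 in the second control and -0.43 in the second E2-BSA array. GPER1 211829_s_at was at -0.06 and 0.24, against -0.38 and -0.07. The GPER1 average differed by 0.36 ± 0.11 (95% interval 0.12 to 0.61, adjusted p = 0.482 in limma), while the median gene differed by 0.10. With ICI the GPER1 average differed by 0.29 ± 0.11 (adjusted p = 0.286 in limma), with pair differences of 0.23 and 0.47 for 210640_s_at and 0.41 and 0.04 for 211829_s_at, beside a median gene at 0.14. With ESRRA 1487_at at 0.30 ± 0.13, 2 of 28 (7.14%) had an unadjusted p under 0.05, against 7.49% of all in limma.

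With BSA, the carrier protein alone, ESRRA had the smallest p of the receptors. ESRRA 1487_at was at 0.55 with BSA and between -0.17 and 0.17 in the other 10 arrays. Its difference from control was 0.74 ± 0.16 and that of 203193_at 0.39 ± 0.15, and their average differed by 0.57 (95% interval 0.27 to 0.86, adjusted p = 0.195 in limma). With ESR1 217163_at at 0.58 ± 0.18, 211233_x_at at 0.56 ± 0.20 and 211235_s_at at 0.51 ± 0.17, 5 of 28 (17.9%) had an unadjusted p under 0.05, against 12.1% of all. The BSA array had the highest median of all 11, and the median probe set lay 0.15 above control in the fit. Centred or quantile normalized arrays left 2 of 28 at that level, and the share of all probe sets was not counted there. E2-BSA against BSA, which shares the BSA array, had 4 of 28 (14.3%), against 13% of all, with the ESRRA average at -0.50 (95% interval -0.80 to -0.20, adjusted p = 0.203 in limma).

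Ethanol at 0.1% had 0 of 28 at an unadjusted p under 0.05, against 6.01% of all in limma. NR3C1 was below the second control in the ethanol array by all 5 probe sets, by -0.40 for 201865_x_at, -0.08 for 201866_s_at, -0.35 for 211671_s_at, -0.44 for 216321_s_at and -0.36 for 232431_at. Its average differed by -0.29 ± 0.13 (95% interval -0.59 to 0.02, adjusted p = 0.804 in limma). The ethanol array gave the lowest values of the low set for 4 of these probe sets, and 232431_at shared the bottom with the ICI array at 0.02.

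**Figure D4:**
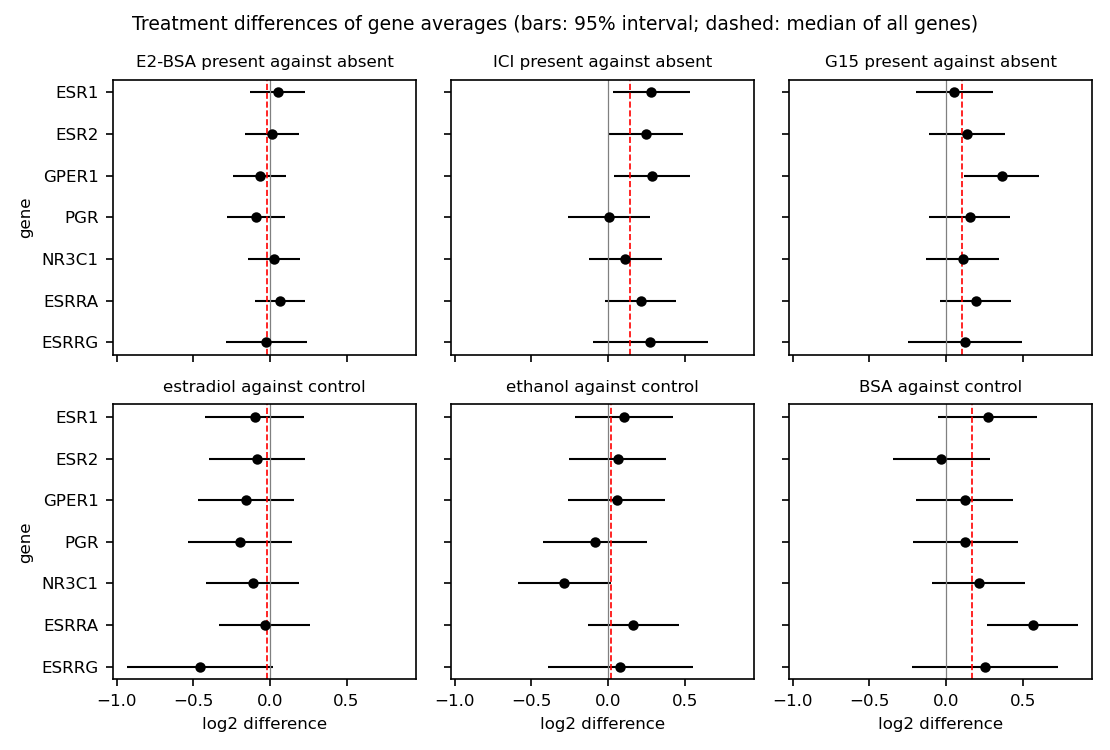
Log2 difference (points) and its 95% interval (bars) for the average of each receptor gene in 6 treatment comparisons of the additive limma fit to 11 arrays; the dashed line is the median of all genes. The intervals for E2-BSA hold 0 for all 7 genes, GPER1 lies at 0.36 with G15 and ESRRA at 0.57 with BSA, and neither passed after adjustment over all genes.

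Under treatment the partner and marker lists held 1 gene that passed. This was PELP1, a scaffold protein that binds estrogen receptors and coactivators. It was at -0.96 with BSA and between 0.33 and 0.63 in the other 7 arrays of the low set. It differed by -1.37 ± 0.15 between BSA and control (adjusted p = 0.013 in limma) and by 1.22 ± 0.15 between E2-BSA and BSA (adjusted p = 0.0258 in limma). It rests on 1 probe set and 1 BSA array, and the first of these calls was lost without the second control, the second E2-BSA array or the array of E2-BSA with ICI (-1.48, -1.30 and -1.35, adjusted p = 0.174, 0.128 and 0.0524 in limma). The call against E2-BSA was lost without any of those or the first E2-BSA or the ICI array (adjusted p from 0.0531 to 0.477 in limma). With no term for the set PELP1 was at -0.96 and 0.82 (adjusted p = 0.584 and 0.523 in limma).

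The other list genes did not pass. Among all 19775 gene averages 0.354% were called for BSA against control, 0.308% for E2-BSA against BSA, 0.086% for ethanol against control, 0.0101% for estradiol against ethanol and 0% for the other 5 treatment comparisons. Among the list genes that did not pass, the largest BSA difference was that of DDX17, an RNA helicase that acts as a coactivator, at -0.88 ± 0.43 (adjusted p = 0.342 in limma). HBEGF, the growth factor shed after GPER activation, was at 0.73 ± 0.13 (adjusted p = 0.11 in limma) and PTGES3, a co-chaperone of HSP90, at -0.68 ± 0.13 (adjusted p = 0.154 in limma). With E2-BSA present the widest were the G protein subunit gene GNAI2 at -0.55 ± 0.26 and DDX17 at -0.46 ± 0.24, and the epithelial adhesion gene EPCAM was at -0.34 ± 0.10 (adjusted p = 0.903 in limma for each). GNAI2 was at 0.97 with G15 but -0.77 with E2-BSA and G15. Its other pairs lay closer, with -0.54 and -0.74 in the first control and E2-BSA arrays and 0.82 and 0.54 in the second. With ICI it was at 0.79 without and 0.81 with E2-BSA. For estradiol against control the receptor-modifying protein gene RAMP3 was at -0.65 ± 0.14 (adjusted p = 0.397 in limma). With ICI the orphan receptor NR0B2 was at 0.45 ± 0.19. In that comparison 15 of 16 coactivators and 13 of 13 corepressors were above 0, but the share of all genes above 0 was not counted. The coactivator median of 0.133 and the corepressor median of 0.129 lay under the median of 0.143 over all genes. In each of these lists 1 gene had an unadjusted p under 0.05 in limma.

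Since no level is known, the agreement of several probe sets of a gene was used to ask how much of the array-to-array variation they share. The 28 probe sets form 65 pairs within a gene. Over the 8 arrays of the low set 52 of the 65 correlations were above 0. Of all 10523 genes with at least 2 probe sets, 69.4% had a median r above 0, and 57.9% with each array centred on its median. Those are shares of gene medians, not of pairs, so they are no direct background for the 52. Pairs of a gene share probe sets, so the 65 are not independent. Of the 65 pairs, of either sign, 14 had a p under 0.05 for Pearson's r and 8 for Spearman's rho in an exact two-sided permutation test, and 0 after Benjamini-Hochberg adjustment over the 65. The share of such pairs among other genes was not counted, so whether the receptor pairs have more is not known.

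The median agreement of NR3C1 rests on the ethanol array, though that of its closest pair does not. Its 10 pairs had a median r of 0.498, from -0.0458 to 0.871, higher than in 80.6% of the 10523 genes with at least 2 probe sets, whose median was 0.178, but without the ethanol array the NR3C1 median was 0.0211, under the 0.494 of ESR1 and the 0.374 of ESR2 without it. The closest pair was 201866_s_at with 216321_s_at (r = 0.871, rho = 0.905, exact permutation p = 0.00598 and 0.00456, adjusted p = 0.165 and 0.235). Its r was 0.866 without 2 arrays, which for this pair were the ethanol array and the second control. The arrays left out were the 2 farthest from the median of the pair's first probe set by identifier, so they can differ between pairs. NR3C1 201865_x_at and 211671_s_at had r = 0.857 (rho = 0.738, exact permutation p = 0.00761 and 0.0458, adjusted p = 0.165 and 0.372), which fell to 0.423 without the 2 arrays of that pair. The 4 pairs that include 232431_at, the probe set that ran opposite between the sets, were the ones with the lowest r, from -0.0458 to 0.234. The 6 pairs of the other 4 probe sets lay between 0.410 and 0.871.

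ESR1 held probe sets that correlated positively and 1, 211627_x_at, with r below 0 against all but 215551_at. Its 36 pairs had a median r of 0.431, from -0.753 to 0.869, higher than in 75.2% of genes. ESR1 211233_x_at and 217163_at had r = 0.869 (rho = 0.810, exact permutation p = 0.00632 and 0.0218, adjusted p = 0.165 and 0.354; r = 0.755 without the 2 arrays). ESR1 211627_x_at ran against 205225_at (r = -0.718, rho = -0.524) and 215552_s_at (r = -0.753, rho = -0.690), with exact permutation p of 0.0497 and 0.197 for the first and 0.0322 and 0.0694 for the second, and r of -0.451 and -0.331 without the 2 arrays of each pair.

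ESR2 was mixed and the genes with a single pair gave 1 value each. The 15 ESR2 pairs had a median r of 0.378, from -0.384 to 0.704, with 10 above 0, and 4 of the 5 pairs below 0 included 211119_at. ESRRA had r = 0.685 (rho = 0.524, exact permutation p = 0.0547 and 0.197; 0.127 without the 2 arrays), and ESRRG r = 0.481 (rho = 0.50, exact permutation p = 0.224 and 0.216; -0.0779 without the 2 arrays). GPER1 had r = 0.249 (rho = 0.50, exact permutation p = 0.571 and 0.216; 0.478 without the 2 arrays), and PGR r = 0.093 (rho = 0.167, exact permutation p = 0.835 and 0.703; 0.259 without the 2 arrays). Those of ESRRA and ESRRG each rest on the arrays left out for that pair.

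**Figure D5:**
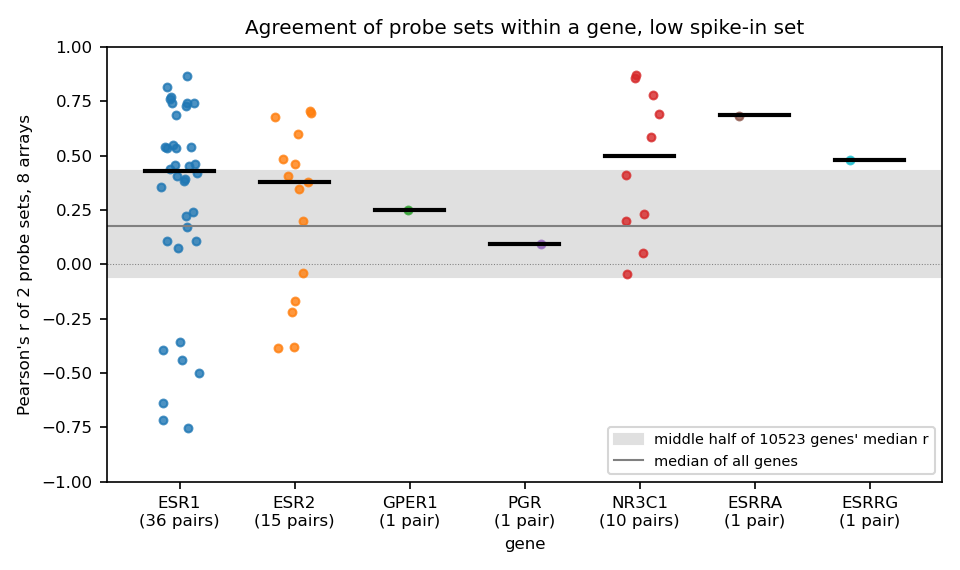
Pearson's r over the 8 arrays of the low spike-in set for each pair of probe sets of a gene (points) and the median per gene (black bars); the grey band runs from the lower to the upper quartile of the median r of 10523 genes and the grey line their median of 0.178. The medians of NR3C1 (0.498), ESRRA (0.685) and ESRRG (0.481) lie above the band, ESR1 (0.431) at its upper edge, and the others within it.

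Some of the receptor averages followed the level of the whole array. That level is the median of all probe sets, and the share of all genes that follow it was not computed. The values below therefore do not set the receptors apart from other genes. Over the 8 arrays the ESR1 average followed the median of all probe sets of the array (r = 0.87, rho = 0.833, exact permutation p = 0.00657 and 0.0154, adjusted over 7 relations 0.0371 and 0.0489; r = 0.794 without 2 arrays). Here the 2 arrays left out were those with the most extreme array median, the same for every gene. ESRRA (r = 0.801, rho = 0.833, adjusted exact permutation p = 0.0371 and 0.0489) and ESRRG (r = 0.794, rho = 0.81, adjusted exact permutation p = 0.0412 and 0.0489) did as well, with r of 0.567 and 0.716 without the 2 arrays. NR3C1 had r = 0.599 (rho = 0.786, adjusted exact permutation p = 0.156 and 0.0489; 0.628 without the 2 arrays). GPER1 (0.562), PGR (0.409) and ESR2 (0.375) had a smaller r, with adjusted exact permutation p of 0.203, 0.362 and 0.362.

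With each array centred on its median, the median r within a gene became 0.481 for ESRRA, 0.403 for NR3C1, 0.313 for ESR2, 0.264 for ESRRG, 0.153 for ESR1, 0.0971 for GPER1 and 0.00895 for PGR, and 0.0695 over all genes. The median r with the probe sets of the other 6 members was then 0.0763 for ESRRA, 0.0315 for NR3C1, 0.0429 for ESR2, 0.205 for ESRRG, 0.0469 for ESR1, 0.121 for GPER1 and -0.132 for PGR. After centring GPER1, which has a single pair, was thus the member whose own probe sets correlated less with each other than with those of the other receptors. Before centring this was not so for GPER1 (0.249 within, 0.239 with the others) but was so for PGR (0.093 and 0.135). The medians with the other members before centring ran from 0.135 for PGR to 0.395 for ESRRG. These are descriptions over the same 8 arrays, with no test.

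The genes whose average was most like that of a receptor over the 8 arrays were sought among the 10522 other genes with at least 2 probe sets. They were MCF2L, GPR137 and CASC2 for ESR1 (r of 0.995, 0.987 and 0.980), LEF1-AS1, CMTM6 and RNF31 for ESR2 (0.966, 0.963 and 0.960), and GOSR2, SLC46A1 and LIMK2 for GPER1 (0.968, 0.966 and 0.964). They were BAG5, SEPTIN8 and MUC5B for PGR (0.961, 0.953 and 0.950), RNF217, EFR3A and CABP7 for NR3C1 (0.988, 0.986 and 0.982), TTTY14, NDOR1 and PTPN7 for ESRRA (0.987, 0.978 and 0.978), and RARS2, RNASE1 and PCDHGC3 for ESRRG (0.983, 0.979 and 0.976). They are the highest of many correlations over 8 arrays that share the array level above, and no receptor is among them.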

How the data were processed

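The deposited table holds log2 values of 11 arrays; the log base was taken as 2, and the authors' summarisation and normalization are not given in the sources used here. The values run from -4.20 to 6.69, and 50.97% of the 54675 probe sets have, as their pair of values closest to 0, equal sizes of opposite sign (tolerance 1e-05), as centring per probe set leaves them. Depth and signal over background are therefore unknown; precision is limited by how few arrays there are. The platform annotation gave 41091 probe sets 1 gene symbol, 1801 several and 11777 none (62 of all are Affymetrix controls, of which 6 with 1 symbol were left out of the first class); all 7 members matched RefSeq (GRCh38.p14) by gene ID.

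Differences come from limma 3.58.1 in R 4.3.3, an additive fit to all 11 arrays with terms for E2-BSA, ICI, G15, estradiol, ethanol, BSA and the spike-in set, 3 residual degrees of freedom, a trend in the prior variance and two-sided Benjamini-Hochberg adjustment over all 54675 probe sets (19775 gene averages for the lists), called at 0.05. Single-array groups are assumed to vary like the rest. Errors are SE unless named. The sets were split at the largest gap in the spike-in mean (1.30, the next 0.39). Agreement used all 40320 pairings of the 8 arrays. The scripts were tested on simulated data.

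The members, gene lists and tests were chosen with earlier results of these data known. Estradiol against E2-BSA, the correlations with the array median those with the other members and the leave-out fits of list genes were added after the data were seen. All members are named; list genes are named if among the 3 smallest p that passed, or as the largest difference of a list where none passed. Some list genes are not analysed here. A filter on dim probes and a pseudocount could not be used on centred values.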

Additional observations from a re-analysis of the deposited data

How the results depend on the processing

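In every treatment comparison 0 of the 28 receptor probe sets were called by limma under each alternative run: no set term, low set only, arrays centred, quantile normalization, no trend, gene averages, probe sets without _s_ or _x_, and 8 fits that left out 1 array (0 to 0). With no set term 0 to 4 of the 28 had an unadjusted p under 0.05 in limma, and the share of all probe sets was not counted there. Low-set fits give no value for estradiol or the sets, and fits with no set term none for the sets. The labels do not say what the control and E2-BSA numbers stand for, but they coincide with the spike-in sets. Both first arrays lay in the high set and both second arrays in the low set. The first-minus-second differences of the 2 groups correlated at 0.829 over 54675 probe sets. With the replicate block and with no replicate block on these 4 arrays 0 members were called, and 0 with a mean per group. For the spike-in sets 4 were called, 4 with centred arrays or no trend, 3 after quantile normalization, 2 as gene averages, 2 without _s_ or _x_ probe sets, and 0 to 7 with 1 array left out (3030 to 14863 over all probe sets, against 11325). BSA against control called 240 of all probe sets, 0 with no set term and 0 to 395 with 1 array left out (0 without the second control or second E2-BSA array), and E2-BSA against BSA 201, 0 and 0 to 376. Over all probe sets 0 were called for G15, ICI and ethanol, but 1616 and 67 for G15 without the G15 array and without that of E2-BSA with G15, 126 and 130 for ICI without those, and up to 37 for ethanol (quantile normalization).

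Median r within ESR1 became 0.153 with centred arrays (0.320 to 0.520 with 1 array left out). ESR2 became 0.0860 over all arrays centred within sets and -0.217 without _s_ or _x_ probe sets (0.160, without E2-BSA with ICI, to 0.457). GPER1 became 0.0969 within sets, 0.0971 with centred arrays and 0.50 as rho (0.20 to 0.335). The ranges were 0.0211 (without the ethanol array) to 0.739 for NR3C1, -0.0627 to 0.330 for PGR, 0.303 (without BSA) to 0.883 for ESRRA and 0.131 (without E2-BSA with ICI) to 0.626 for ESRRG; the causes were not tested. Signs of members that were not called changed in up to 10 of 28 probe sets of a comparison; no called value changed sign.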
